A study of Mus musculus with 6 samples.

Results

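Genes of bone-forming, stromal and endothelial cells were read in RNA from sorted short-term hematopoietic stem cells (ST-HSC), blood progenitors with limited self-renewal. The set holds 10 of the 53677 gene symbols in the expression table and was taken by symbol alone. It has 5 genes of osteoblasts (Bglap, Bglap2, Col1a1, Col1a2 and Sparc), 2 of marrow stroma (Cxcl12 and Lepr) and 3 of endothelium (Cdh5, Pecam1 and Kdr), and all 10 were found. Cells were taken from C57BL/6J mice after long bones, pelvis and spine had been ground, and were gated as negative for lineage markers and CD150 and positive for Kit and CD48. The 3 wild-type (WT) libraries carry the genotype label dnTCF4-/- and the 3 dnTCF4 libraries the label dnTCF4+/+, where dnTCF4 is a dominant-negative form of the transcription factor TCF4. The sources used here do not give the promoter or cell type that drives dnTCF4, or the age of the mice. The design text counts 3 mice per genotype.

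Blood progenitors live in the marrow beside the cells that make up their niche. Osteoblasts lay down bone as a matrix of type I collagen that is filled with the small protein osteocalcin and with osteonectin. Perivascular stromal cells that carry the leptin receptor secrete the chemokine CXCL12, which holds progenitors in the marrow through its receptor CXCR4. Endothelial cells line the sinusoids and arterioles and are joined by VE-cadherin. None of these cells belongs to the blood lineage, so the gate should leave them out, with the exception that some of their surface proteins are also made by blood cells.

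Values are in RPKM, read counts scaled by gene length and by library depth, and can be compared between genes per length. Counted reads could be recovered for all 10 genes. A library held about 57400000 to 110900000 of them, and a library at 0 was given a limit of 3 reads, for counting error only. Immunoglobulin genes took 25.5% to 44.1% of summed RPKM in WT and 3.27% to 6.33% in dnTCF4, which leaves more of the scale to every other gene in dnTCF4. The median log2 fold change (dnTCF4 minus WT) of all 11326 genes tested was 0.14, against -0.04 after median ratio scaling. Replicate 1 of both genotypes held reads of the Y-linked gene Ddx3y (30.5 RPKM in WT and 24.8 in dnTCF4), which was listed at 0 in the other libraries.

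Mouse osteocalcin is encoded by neighbouring genes on chromosome 3, and their coding sequences are shown because they bear on how far the values of Bglap and Bglap2 can be told apart. Each is the GENCODE M21 coding sequence of 288 bases on the minus strand of GRCm38, printed 5′ to 3′ from the start codon to the stop codon, with capitals at the 13 positions where the 3 genes are not all alike.
Bglap: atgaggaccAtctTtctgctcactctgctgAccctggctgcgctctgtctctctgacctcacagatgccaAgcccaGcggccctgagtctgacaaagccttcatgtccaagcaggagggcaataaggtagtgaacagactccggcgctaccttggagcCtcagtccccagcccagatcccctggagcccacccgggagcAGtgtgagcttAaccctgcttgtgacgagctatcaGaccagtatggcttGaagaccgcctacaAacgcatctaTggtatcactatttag
Bglap2: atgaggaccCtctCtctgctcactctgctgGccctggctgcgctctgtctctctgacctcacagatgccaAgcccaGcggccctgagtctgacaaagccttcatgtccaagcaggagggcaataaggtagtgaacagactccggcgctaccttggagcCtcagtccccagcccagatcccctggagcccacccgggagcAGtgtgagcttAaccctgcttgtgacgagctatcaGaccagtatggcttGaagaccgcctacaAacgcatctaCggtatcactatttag
Bglap3: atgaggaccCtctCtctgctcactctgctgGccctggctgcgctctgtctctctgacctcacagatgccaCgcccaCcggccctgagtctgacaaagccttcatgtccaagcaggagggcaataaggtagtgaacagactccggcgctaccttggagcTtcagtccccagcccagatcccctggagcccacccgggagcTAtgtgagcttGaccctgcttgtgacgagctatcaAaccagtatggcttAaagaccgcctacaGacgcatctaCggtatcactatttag
Bglap and Bglap2 differ at 4 of 288 bases (98.6% identity) and share an unbroken identical run of 241 bases. Bglap3 differs from Bglap at 13 bases and from Bglap2 at 9. How reads that match more than 1 of these genes were counted is not given in the sources used here, so the split between Bglap and Bglap2 is uncertain. Bglap3, which is expressed outside bone, was read only in WT replicate 1 (10 reads).

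For Bglap, the main osteocalcin gene (GRCm38 chromosome 3, 88383501 to 88384464), WT replicates 1, 2 and 3 held 0.943, 0 and 0.239 RPKM, and dnTCF4 replicates 1, 2 and 3 held 7.47, 2.92 and 0.282. These values rest on 37, 0 and 10 reads in WT and 291, 200 and 10 in dnTCF4, and the 0 in WT replicate 2 allows up to 0.0786 RPKM. Replicates 1 and 2 of dnTCF4 were the highest libraries, while dnTCF4 replicate 3 lay between the WT libraries, so the groups overlapped.
Bglap2 (chromosome 3, 88377736 to 88378699) was at 1.07, 0 and 0 RPKM in WT and 6.70, 3.18 and 0.111 in dnTCF4, from 32, 0 and 0 reads and from 199, 166 and 3 reads. Its libraries stood in nearly the same order as those of Bglap. The zeros in WT replicates 2 and 3 allow up to 0.103 and 0.0941 RPKM, so dnTCF4 replicate 3 was not above that limit beyond counting error.

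Sparc, which encodes osteonectin (chromosome 11, 55394500 to 55423183), was the osteoblast gene with the highest mean, at 1.57, 0.184 and 0.273 RPKM in WT and 7.90, 1.61 and 0.451 in dnTCF4. It was backed by 43 to 1888 reads per library. The highest library was again dnTCF4 replicate 1, and WT replicate 1 lay close to dnTCF4 replicate 2. Sparc is also made by megakaryocytes, whose markers are given below.

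The type I collagen chains stood far lower per length than osteocalcin and osteonectin. Col1a1, the alpha 1 chain (chromosome 11, 94936224 to 94953042), was at 0.108, 0.00247 and 0.00675 RPKM in WT, from 45, 1 and 3 reads, and at 0.790, 0.0811 and 0.0398 in dnTCF4, from 327, 59 and 15 reads. Col1a2, the alpha 2 chain (chromosome 6, 4504814 to 4541544), was at 0.104, 0.0625 and 0.0487 RPKM in WT and 0.713, 0.147 and 0.0827 in dnTCF4. Both chains had their highest value in dnTCF4 replicate 1, and in both the groups overlapped through WT replicate 1. In dnTCF4 replicate 1 the level of Bglap was 9.45 times that of Col1a1, and in dnTCF4 replicate 2 it was 36.0 times.

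**Figure D1:**
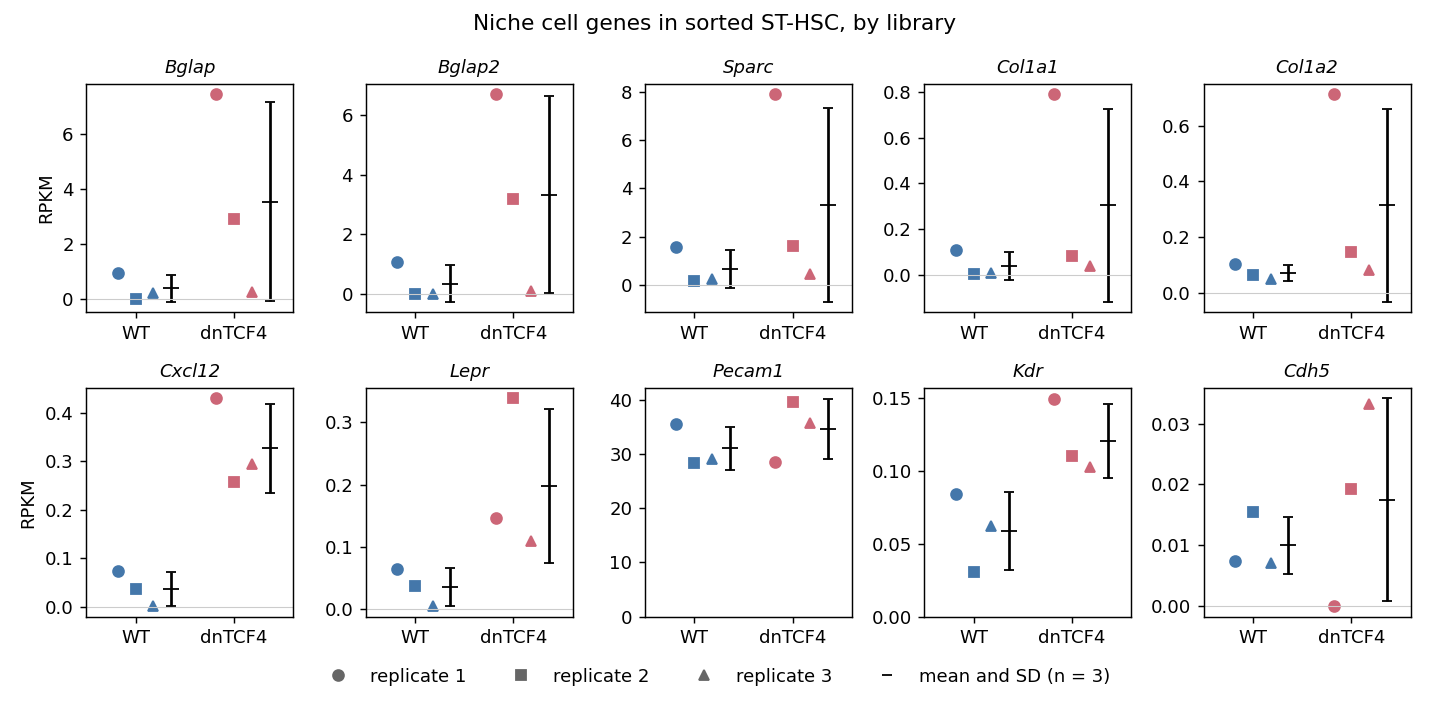
RPKM of the 10 genes by library, with WT in blue and dnTCF4 in red, 1 marker shape per replicate number, and the mean with its SD (n = 3) in black. Each panel has its own linear axis; the 5 osteoblast genes peak in dnTCF4 replicate 1, Cxcl12, Lepr and Kdr have dnTCF4 values that all lie above the WT values, and Pecam1 stands between 28.4 and 39.6 RPKM in every library.

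Summed over the 5 osteoblast genes, WT replicates 1, 2 and 3 held 3.80, 0.249 and 0.567 RPKM, and the dnTCF4 replicates held 23.6, 7.93 and 0.966 in the same order. Replicate 1 was the highest library of its own genotype, and dnTCF4 replicate 3 lay below WT replicate 1. The WT mean was 1.54 ± 1.96 RPKM and the dnTCF4 mean 10.8 ± 11.6 (SD, n = 3 per genotype). Without dnTCF4 replicate 1 the difference of the means was 2.91 RPKM in place of 9.29. Both libraries with Ddx3y reads are replicates 1, and the part of sex in these levels was not tested. In bulk samples, fewer cells of a type and less RNA per cell cannot be told apart.

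Bglap, Bglap2 and Sparc reached the mean of 1 RPKM set for testing, and 0 of them changed between the genotypes. Bglap averaged 0.394 ± 0.490 RPKM in WT against 3.56 ± 3.63 in dnTCF4 (SD, n = 3 per genotype), with a log2 fold change of 1.38 on log2(RPKM + 1) (SE 0.64, 95% confidence interval -0.11 to 2.88) and a limma adjusted p of 0.56. The log2 fold change of Bglap2 was 1.37 (SE 0.68, limma adjusted p = 0.58) and that of Sparc 1.04 (SE 0.64, limma adjusted p = 0.65). Without dnTCF4 replicate 1 the values were 0.74, 0.76 and 0.31 for Bglap, Bglap2 and Sparc, and without dnTCF4 replicate 3 they were 2.10, 2.15 and 1.62. Collagen genes stayed under 1 RPKM and were not tested in this fit. Exact two-sided permutation p was 0.2 for Bglap, Bglap2, Sparc and Col1a2 and 0.3 for Col1a1, where 3 libraries against 3 cannot give less than 0.1.

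In mean level the stromal genes stood below Sparc, Bglap and Bglap2 and near the collagen chains. In both stromal genes the dnTCF4 libraries all lay above the WT libraries. Cxcl12, the chemokine that retains progenitors (chromosome 6, 117168535 to 117181367), read 0.0732, 0.0356 and 0.00181 RPKM in the WT replicates, from 38, 18 and 1 reads. In dnTCF4 it was at 0.431, 0.257 and 0.294 RPKM, from 222, 233 and 138 reads. The lowest dnTCF4 library thus stood above the highest WT library, and the 3 dnTCF4 values were closer to each other than those of any osteoblast gene.
Lepr, the leptin receptor (chromosome 4, 101717404 to 101815352), was at 0.0648, 0.0367 and 0.00419 RPKM in WT, from 29, 16 and 2 reads, and at 0.146, 0.339 and 0.109 in dnTCF4, from 65, 265 and 44 reads. Its highest library was dnTCF4 replicate 2, not replicate 1. Cxcl12 averaged 0.0369 ± 0.0357 RPKM in WT against 0.327 ± 0.0914 in dnTCF4, and Lepr 0.0352 ± 0.0303 against 0.198 ± 0.124 (SD, n = 3 per genotype). Each gave the smallest exact two-sided permutation p that the design allows, 0.1. Neither reached 1 RPKM, so limma on RPKM did not test them.

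The endothelial genes fell into 2 kinds. Pecam1, which encodes the adhesion molecule CD31 (chromosome 11, 106654217 to 106750628), was at 35.6, 28.4 and 29.2 RPKM in WT and 28.5, 39.6 and 35.7 in dnTCF4, from 10906 to 27345 reads. It was therefore as abundant as Ptprc, the pan-blood antigen CD45, which stood at 26.6 to 31.2 RPKM in WT and 31.7 to 42.3 in dnTCF4. The genotypes overlapped, with means of 31.0 ± 3.96 and 34.6 ± 5.60 RPKM, a log2 fold change of 0.15 (SE 0.20, 95% confidence interval -0.31 to 0.61) and a limma adjusted p of 0.77. Its sign turned when libraries were rescaled by median ratio (-0.065) or without immunoglobulin genes (-0.050).

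Cdh5, VE-cadherin of endothelial junctions (chromosome 8, 104101625 to 104144511), was at 0.00749, 0.0154 and 0.00703 RPKM in WT, from 2, 4 and 2 reads, and at 0, 0.0193 and 0.0332 in dnTCF4, from 0, 9 and 8 reads. Reads of Cdh5 exceeded the limit of 3 in 3 of 6 libraries. Kdr, the VEGF receptor VEGFR2 (chromosome 5, 75932827 to 75978458), was at 0.0837, 0.0305 and 0.0622 RPKM in WT and 0.149, 0.110 and 0.102 in dnTCF4, from 17 to 48 and from 53 to 110 reads. The 3 dnTCF4 values of Kdr lay above the 3 WT values (exact two-sided permutation p = 0.1), but not after median ratio scaling or with immunoglobulin genes left out. Pecam1 stood 191 to 930 times above Kdr in the same library. By level Pecam1 is thus no trace in these cells, and CD31 is known on blood progenitors as well as on endothelium.

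**Figure D2:**
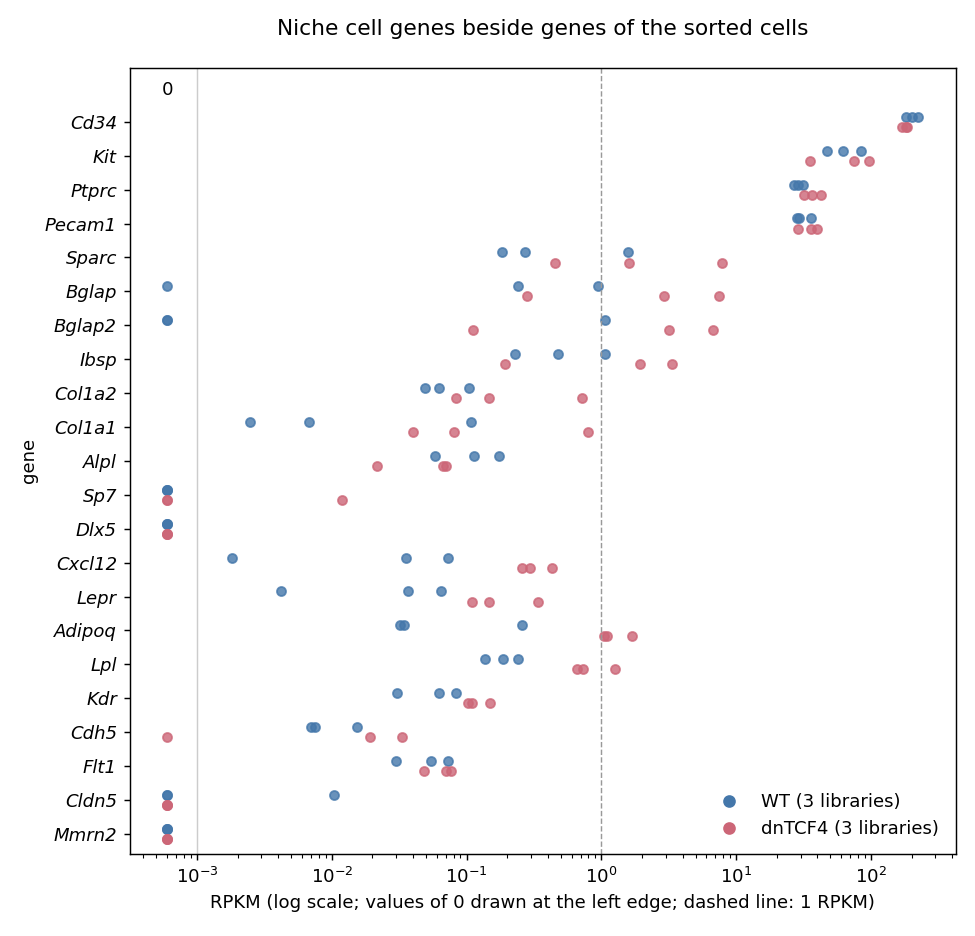
RPKM per library on a log axis for genes of the sorted cells (Cd34, Kit and Ptprc), the 10 niche genes and further markers of their cell types, WT in blue and dnTCF4 in red, 3 libraries each. Values of 0 are drawn at the left edge, where points of several libraries coincide; Pecam1 lies at the level of Ptprc and the other niche genes lie at 7.90 RPKM or lower.

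Read in order of mean level over the 6 libraries, Pecam1 (32.8 RPKM) was followed by Sparc (2.00), Bglap (1.97), Bglap2 (1.84), Col1a2 (0.193), Cxcl12 (0.182), Col1a1 (0.171), Lepr (0.117), Kdr (0.0896) and Cdh5 (0.0137). Sparc, Bglap and Bglap2 differed from one another by less than their spread over libraries, and so did Col1a2, Cxcl12, Col1a1 and Lepr. Kit, the receptor used for the sort, stood at 35.5 to 97.1 RPKM, and Cd34 at 171.0 to 222.7.

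Because most of the genes were too low for the RPKM test, the recovered reads were also fitted with voom, over genes with at least 10 reads in at least 3 libraries, a choice made after the levels were seen. Of the 10 genes 9 entered this fit, Cdh5 being the one left out, and a gene could enter through 1 genotype alone. By limma on RPKM, 0 of the 4 tested genes were called, against 0.3% of all genes tested, and 0 had an unadjusted p under 0.05, as had 1090 of all 11326. By voom, 0 of 9 were called, against 0.166% of all genes tested, and 3 had an unadjusted p under 0.05, as had 1516 of all 16833 genes in that fit. These were Cxcl12 with a log2 fold change of 4.06 (SE 0.93, 95% confidence interval 1.93 to 6.19, voom adjusted p = 0.19), Lepr with 3.03 (0.93 to 5.13, adjusted p = 0.36) and Kdr with 1.10 (0.06 to 2.14, adjusted p = 0.54). The osteoblast genes had voom log2 fold changes of 1.57 to 4.59 with intervals that all reached below 0. Cxcl12 in WT replicate 3 rested on 1 read and Lepr there on 2, which makes the fitted size of both uncertain.

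**Figure D3:**
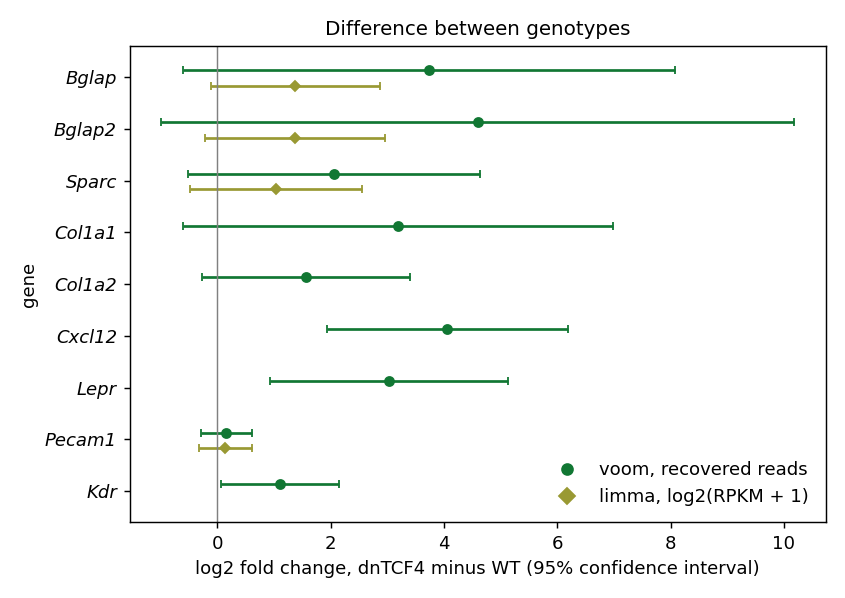
Log2 fold change, dnTCF4 minus WT, with its 95% confidence interval, from voom on recovered reads (green circles, 9 genes) and from limma on log2(RPKM + 1) (olive diamonds, the 4 genes averaging 1 RPKM or more). The voom intervals of Cxcl12, Lepr and Kdr lie above 0 before adjustment over all genes, and those of the osteoblast genes and Pecam1 span 0.

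The replicate numbers gave a second way to set the libraries side by side. Within each of the 3 same-numbered pairs, the dnTCF4 value was above the WT value for 8 of the 9 genes fitted by voom, Pecam1 being the exception. In pair 3, Bglap rested on 10 reads in each library and Bglap2 on 3 reads against 0, so neither was higher there beyond counting error. Of all 16833 genes in that fit, 35.1% were higher in dnTCF4 in every pair. Under median ratio scaling the count was again 8 of 9, against 16.5% of all genes. With immunoglobulin genes left out it was 8 of 9, against 18.4%. All 5 osteoblast genes are among the 8 and shared their highest library, so they do not count as separate cases. For Sparc, the dnTCF4 value was 5.03, 8.76 and 1.65 times the WT value in pairs 1, 2 and 3, and for Col1a2 6.86, 2.34 and 1.70 times. Groups that did not overlap, with dnTCF4 higher, were seen for 3 of 9 (Cxcl12, Lepr and Kdr), against 14.4% of all genes. That count was 2 of 9 (Cxcl12 and Lepr) under median ratio scaling, against 6.39%. With immunoglobulin genes left out it was 2 of 9, against 6.56%. The genes were chosen with earlier results of these data known, and could pass the filter on reads through 1 genotype alone. The counts in this paragraph are therefore descriptive only.

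Other genes of bone-forming cells were read to check the name of the group. Of 15 further genes on the osteoblast list, 10 had a mean under 0.1 RPKM, and Sost and Dlx5 were at 0 in every library. Bglap3, which is expressed outside bone, is 1 of the 10. Sp7, the transcription factor that commits osteoblasts, was read in dnTCF4 replicate 3 only, at 0.0120 RPKM. Ibsp, bone sialoprotein, was at 1.06, 0.478 and 0.229 RPKM in WT and 3.34, 1.93 and 0.194 in dnTCF4, so its highest libraries were those of Bglap (limma adjusted p = 0.68). Spp1, osteopontin, which blood cells also make, was at 4.20 to 7.74 RPKM in WT and 15.5 to 20.7 in dnTCF4, a log2 difference of 1.34 (limma adjusted p = 0.13), with its highest value in dnTCF4 replicate 3. Runx2, an osteoblast regulator that progenitors express as well, was at 4.99, 4.55 and 6.01 RPKM in WT and 7.93, 5.17 and 9.90 in dnTCF4. Its highest value was in dnTCF4 replicate 3, where Bglap was lowest among the dnTCF4 libraries. Of the 3 markers tested, 3 had higher values in dnTCF4 and 0 were called. The whole list summed to 11.1 to 15.9 RPKM in WT and 25.1 to 33.3 in dnTCF4, most of it Spp1 and Runx2. Omd, at 0.308 to 1.52 RPKM in WT and 0.430 to 1.30 in dnTCF4, and Ifitm5, at 0.371 to 0.677 and 0.884 to 1.00, were named after their values were seen. The highest values of Omd were not in the libraries where Bglap was highest.

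The osteoblast regulator Runx2 is known to act on Bglap, but its part in the levels seen here was not tested. The promoter of Bglap is shown as sequence only. The 250 bases before its RefSeq start (GRCm38.p6 chromosome 3, 88384467 to 88384716, minus strand, 5′ to 3′) were searched on both strands for TGTGGT, the letters that RUNX factors bind, with any match in capitals.
Bglap promoter: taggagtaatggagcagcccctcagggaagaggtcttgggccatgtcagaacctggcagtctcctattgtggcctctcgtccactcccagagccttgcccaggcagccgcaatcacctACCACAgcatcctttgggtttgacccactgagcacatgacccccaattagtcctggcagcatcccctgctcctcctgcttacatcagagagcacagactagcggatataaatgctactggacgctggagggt
They occurred once in Bglap, as ACCACA on the printed strand. RefSeq promoters of 6 of the 10 genes were matched by symbol (Bglap, Col1a2, Sparc, Cxcl12, Lepr and Kdr), and 1 of the 6 held the letters, against 14.0% of 32851 promoter windows of the same length.

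Some markers of reticular stroma followed Cxcl12 and Lepr, and others did not. Of 17 further stromal and pericyte markers, 9 had a mean under 0.1 RPKM and Cspg4 was at 0 throughout. Kitl, Pdgfra, Foxc1 and Ebf3, named after their values were seen, were among the 9. In that order their means were 0.0267, 0.00299, 0.000842 and 0.00267 RPKM in WT. In dnTCF4 they were 0.0516, 0.0190, 0.0214 and 0.00254. The 4 tested markers had higher values in dnTCF4, 0 of them called, with a median log2 fold change of 0.38 against 0.14 for all genes tested. Among these were Angpt1, a ligand of the receptor TEK, at 104 to 107 RPKM in WT and 94.2 to 152 in dnTCF4, and Pdgfrb at 12.6 to 17.4 and 10.9 to 29.1. These levels match those of progenitor genes and not those of Cxcl12. Adipoq, the hormone adiponectin, which marks adipocytes and Lepr-positive stroma, was at 0.0342, 0.258 and 0.0321 RPKM in WT, from 28 reads in all, and 1.10, 1.70 and 1.05 in dnTCF4, from 439 reads. Its groups did not overlap, and voom gave a log2 fold change of 4.16 with an adjusted p of 0.10. Lpl, lipoprotein lipase, chosen here after its values were seen, was at 0.137 to 0.241 RPKM in WT and 0.656 to 1.27 in dnTCF4 (voom log2 fold change 2.19, adjusted p = 0.090). Of the 10 stromal and pericyte markers fitted by voom, 3 (Adipoq, Lpl and Vcam1) had groups that did not overlap, with dnTCF4 higher, against 14.4% of all genes. Vcam1, named after its values were seen, is also on the macrophage list below. Thy1 and Il7 were named after their values were seen. Thy1 was lower in dnTCF4 in every same-numbered pair, at 0.790, 0.661 and 0.689 times WT. Il7 averaged 0.331 RPKM in WT and 0.347 in dnTCF4. Of the adipocyte list, Lep was at 0 in every library and 4 of 6 genes had a mean under 0.1 RPKM.

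Matrix genes of fibroblasts and bone did not share 1 order. Of 20 matrix genes 12 had a mean under 0.1 RPKM. Only 1 was tested by limma and 14 by voom. In either fit 0 were called, against 0.3% of all genes tested by limma and 0.166% by voom. The 3 with the highest means were Mgp, whose values peaked in dnTCF4 replicate 3, Fn1 and Bgn. Fn1, fibronectin, was at 0.574 to 0.683 RPKM in WT and 0.589 to 0.823 in dnTCF4. Bgn, the proteoglycan biglycan, was at 0.668 to 0.705 and 0.443 to 0.777, so the genotypes overlapped in both. Lum and Dcn, small proteoglycans that bind collagen, were named after their values were seen. Lum was at 0.109, 0 and 0 RPKM in WT and 1.08, 0.545 and 0.192 in dnTCF4. Dcn was at 0.256, 0.0721 and 0.0784 in WT and 0.899, 0.349 and 0.749 in dnTCF4 (voom adjusted p = 0.26 for Lum and 0.23 for Dcn). Lum peaked in the same library as Bglap, while Dcn was nearly as high in dnTCF4 replicate 3, where Bglap was low.

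**Figure D4:**
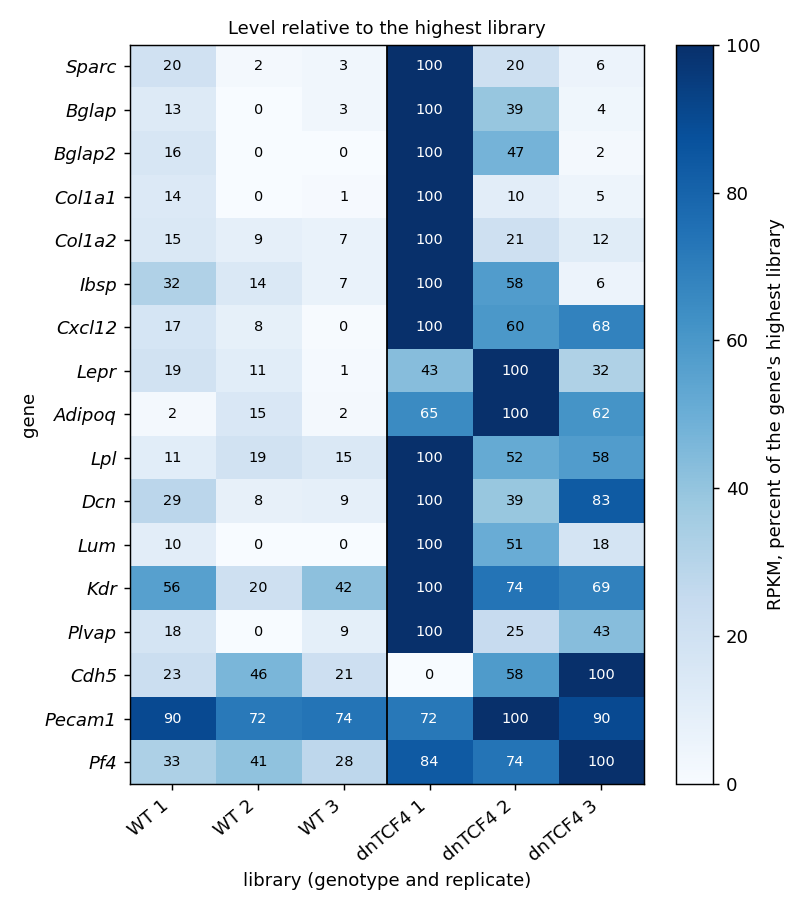
Level of each gene in each library as a percentage of the library where it was highest, for the niche genes and for Ibsp, Adipoq, Lpl, Dcn, Lum, Plvap and Pf4, with the genotypes parted by the vertical line. Osteoblast genes are concentrated in dnTCF4 replicate 1 and low in dnTCF4 replicate 3, Cxcl12, Lepr, Adipoq and Lpl are at 32.1% or more of their highest level in every dnTCF4 library, and Pecam1 is at 71.6% or more everywhere.

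Further endothelial markers did not differ in sum. Of 18 markers held to be restricted to endothelium, 10 had a mean under 0.1 RPKM, and Mmrn2 was at 0 in every library. The list summed to 10.8 to 11.6 RPKM in WT and 10.6 to 11.6 in dnTCF4, mostly from Emcn, Robo4 and Tie1, which blood stem and progenitor cells also express. Of the 3 tested, 1 was higher and 2 were lower in dnTCF4, and 0 were called. Plvap, a protein of fenestrated endothelium named after its values were seen, was at 0.0713, 0 and 0.0372 RPKM in WT and 0.407, 0.0998 and 0.175 in dnTCF4, from 14 and 93 reads in all (voom adjusted p = 0.50). All 12 endothelial genes shared with progenitors were tested, with 6 higher and 6 lower in dnTCF4 and 0 called.

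Cells of other kinds were read beside the niche genes. The megakaryocyte list summed to 132.7 to 167.2 RPKM in WT and 229.4 to 239.8 in dnTCF4. Its leading gene Pf4, platelet factor 4, was at 49.9, 62.3 and 42.4 RPKM in WT and 128, 112 and 153 in dnTCF4. Sparc did not share that order, since it was lowest among the dnTCF4 libraries where Pf4 was highest. Macrophage markers summed to 5.93 to 11.8 and 11.3 to 15.8 RPKM. Of 5 tested, 4 had higher and 1 had lower values in dnTCF4, and 0 were called. C1qb, a complement gene and the highest of the list, ranged from 1.58 to 5.44 RPKM in WT and from 1.46 to 4.53 in dnTCF4. Its log2 difference was -0.15 (limma adjusted p = 0.89), and positive without WT replicate 3 (0.26). Adgre1 (F4/80), at 0.787 to 1.43 and 2.60 to 3.24 RPKM, and Spic, at 0.856 to 1.55 and 2.37 to 2.74, were higher in all dnTCF4 libraries. Chondrocyte, smooth muscle and Schwann cell lists summed to 0.0588 to 0.158, 0.248 to 0.438 and 4.13 to 9.03 RPKM over the 6 libraries, and osteoclast markers to 2.34 to 5.87. The part of megakaryocytes, macrophages and the immunoglobulin share in the differences of the niche genes was not tested.

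For the gene with the highest mean in each group, the tested genes with the nearest profile over the 6 libraries were listed by Pearson's r of log2(RPKM + 1). For Sparc these were C130050O18Rik, Apobr and Sytl1 (0.979, 0.974 and 0.972), and 12 genes reached 0.95. For Cxcl12 they were Sh2d1b1, Rfesd and E130215H24Rik (0.991, 0.989 and 0.989), with 38 genes at 0.95 or more. For Pecam1 they were Pls3, Pik3c3 and Usp37 (0.985, 0.981 and 0.976), with 26 genes at that level. With 6 libraries and 11326 genes, such values describe likeness of profile only.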

How the data were processed

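The authors deposited 1 table of RPKM values covering the 6 libraries. Named in the submitters' processing notes are the tools edgeR, DESeq2, featureCounts and STAR and the builds mm10 and GRCm38; versions, annotation and the handling of multi-mapped reads were not given in the sources used here.

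Gene positions and union exon lengths came from GENCODE M21 (GRCm38), matched by symbol for 49627 of the 53677 rows. RPKM times length gave whole multiples of 1 read, within 0.02 of a read, for 94.4% to 95.2% of genes under 1000 reads. That set the depth and the reads of each library. No 2 libraries of a genotype agreed within sampling noise (chi-square per gene of at least 147).

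Genes averaging 1 RPKM or more were fitted on log2(RPKM + 1) with limma 3.58.1 (R 4.3.3; eBayes with trend, two-sided, genotype only) and called at a Benjamini-Hochberg adjusted p under 0.05 over all genes tested. Exact permutation tests used scipy 1.17.1. The fits were tested on simulated data. Alternatives were no filter, a mean of at least 5 RPKM, a pseudocount of 0.1, other scalings, the replicate block, each library left out, and voom. Added after the data were seen were voom with a read filter, with and without the block, and leaving out replicate 1 of both genotypes.

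The 10 genes and all marker lists were chosen with earlier results of these data known. The rule named every gene of the set, up to 3 of each marker list by mean RPKM, Kit, Ptprc and Cd34, and the 3 nearest profiles per group; 1 gene under this rule is not reported here. Further names are given as such, and Sost, Dlx5, Sp7, Cspg4, Mmrn2 and Lep are named as markers at or near 0. Deviations of same-numbered libraries from their genotype means correlated at 0.17, 0.35 and 0.30 across genes, all over the bound of 0.1. The numbers were therefore taken to pair libraries, but where the pairing comes from is not stated in the labels. The main limma fit and the permutation tests did not use the pairing, and fits with the replicate block are given below as alternatives.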

Additional observations from a re-analysis of the deposited data

How the results depend on the processing

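In each of the 17 fits 0 of the 10 genes were called, whichever of them were tested. The lowest adjusted p was 0.064, for Col1a1 by voom with the read filter and the replicate block. With that block 8 of 9 had an unadjusted p under 0.05, as had 2428 of all 16833 genes. Without it these were 3 of 9 and 1516. The replicate block thus changed no call among the 10 genes. In voom it narrowed the SE of each fitted gene of the set except Pecam1, where the SE went from 0.195 to 0.212. In limma the block gave adjusted p of 0.27 for Bglap, 0.24 for Bglap2 and 0.25 for Sparc. Without replicate 1 of both genotypes the log2 fold changes were 1.01, 1.11 and 0.66. Voom moved Bglap to 3.74, Bglap2 to 4.57 and Sparc to 2.06. With a pseudocount of 0.1 in limma they were 2.65, 2.88 and 1.80. Although log2(RPKM + 1) compresses low values, its part in the move was not tested. Bglap and Bglap2 had 0 reads in WT replicate 2, which makes their fitted size uncertain. The summed endothelial difference, 3.65 RPKM, was -1.69 after median ratio scaling, and ranged from 1.16 to 6.67 with 1 library left out. That of the osteoblast genes ranged from 2.91 to 14.2 and that of the stromal genes from 0.418 to 0.514. Signs turned for genes that were called in no fit. Rescaled by median ratio and without immunoglobulin genes, these were Pecam1 (-0.065 and -0.050), Emcn (-0.17 and -0.15, from 0.022) and Kit (-0.19 and -0.17, from 0.028). With 1 library left out, Emcn ranged from -0.086 to 0.11, Tie1 from -0.21 to 0.11, C1qb from -0.53 to 0.26 and Kit from -0.27 to 0.44. Kit was at -0.28 without both replicates 1. Over all genes, 34 calls became 6 with no filter, 14 by voom, 10 without both replicates 1 and, with 1 library left out, 7 without WT replicate 1, 18 without WT replicate 3, 22, 16 and 11 without dnTCF4 replicates 1, 2 and 3, and 0 without immunoglobulin genes, where 603 had an unadjusted p under 0.05. Voom with the read filter called 28 genes, and 113 with the replicate block. Cdh5 was too scarce for the read fits (adjusted p = 0.82 by limma with no filter), and at 0 to 9 reads a library no difference in it was detectable.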

Other observations

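Some genes of the same cell types did not share the library order of the osteoblast genes, and all were named after their values were seen. Mgp, matrix Gla protein, read 1.34, 0.0273 and 0 RPKM in the WT replicates and 0.842, 0.547 and 3.32 in the dnTCF4 replicates, with its highest value in the dnTCF4 library where Bglap was lowest. Alpl, the alkaline phosphatase of osteoblasts, was at 0.0586, 0.173 and 0.114 RPKM in WT and 0.0708, 0.0671 and 0.0216 in dnTCF4, so its highest values were in WT. Dcstamp and Atp6v0d2, genes of osteoclast fusion, were highest in WT replicate 1 (0.284 and 0.464 RPKM) and at 0.0642 or lower in every other library. Col3a1, the type III collagen chain, was at 0.00151 to 0.00660 RPKM in WT and 0.0302 to 0.0661 in dnTCF4, from 8 and 112 reads in all, and its groups did not overlap.

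Ratios between genes of a group also varied. Per length, Bglap stood 7.08 to 36.0 times above Col1a1 in the 5 libraries where Bglap was read. Cxcl12 was at 2.94 and 2.70 times Lepr in dnTCF4 replicates 1 and 3 but at 0.758 times in replicate 2. Pecam1 was at 1.02 to 1.14 times Ptprc in WT and 0.900 to 0.973 times in dnTCF4, groups that did not overlap, although neither gene was called. The ratios were not planned, and how often ratios of other gene pairs part in this way was not computed. They are therefore descriptive only.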
